A study of Mus musculus with 11 samples.

Results

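The basal and stress keratins are 7 intermediate-filament genes of stratified epithelium, Krt5, Krt14, Krt15, Krt16, Krt17, Krt6a and Krt6b, and they were followed here across 11 arrays of mouse embryonic fibroblasts (MEFs) given different reprogramming transgenes. All 7 were measured, each by the only probe set (a group of array probes summarised to 1 value) that names it, among 19938 genes in all. The cells came from male 13.5 dpc embryos of the genotype ROSA-rtTA; Nanog-GFP, an F1 cross of a ROSA-rtTA mother on a C57Bl6 backcross and a Nanog-GFP BAC transgenic father of mixed C57Bl6/129SV background. They received a piggyBac transposon (PB-TAC) by transfection together with a transposase plasmid, and 1 ug/mL doxycycline switched on the transgene and an mCherry reporter. Each array is 1 transfected cell population, with 1 array per construct.

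The groups were set by the form of Klf4 in the construct. Klf4 exists as a long form and as a short form that lacks 9 residues at its N-terminus. Long-Klf4 cassettes were OSKM, OK+9MS and MKOS, and short-Klf4 cassettes were OKMS, STEMCCA, EB-C5 and WTSI; each cassette encodes Oct4, Klf4, c-Myc and Sox2 in 1 transcript. OKN-HAMS carries Klf4 with an HA tag at the N-terminus and was kept apart. Klf4L and Klf4S encode the long and the short form without the other factors and made up the Klf4 alone group, and lacZ was the control. The labels state the form, or the added residues, for OKMS, OK+9MS, Klf4L and Klf4S; for the other cassettes the form is that known for the study's constructs. All 10 constructs with Klf4 were collected as mCherry-positive sorted cells at day 6, whereas lacZ cells were taken at day 2 with no sort, so that in every comparison with lacZ the transgene, the day and the sort cannot be told apart.

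Keratins build the intermediate filaments of epithelial cells as heteropolymers of an acidic type I and a basic type II chain. Krt5 (type II) and Krt14 (type I) are the pair of the basal layer of the epidermis, and Krt15 (type I) marks basal cells and hair follicle stem cells. Krt6a and Krt6b (type II) with Krt16 and Krt17 (type I) are low in resting interfollicular epidermis and are induced in wounded or hyperproliferative epidermis. Fibroblasts normally make vimentin filaments in their place, and Klf4 is itself a transcription factor of epidermal differentiation and barrier formation.

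Values are log2 expression levels that the authors made with RMA, which corrects background, normalizes arrays and summarises probe sets; RMA can understate large differences. Array medians lay between 7.19 and 7.27. Olfactory and vomeronasal receptor genes, 1194 in all, served as a measure of background, and 95% of them read below 6.18 to 6.32 depending on the array. The Klf4 probe set read 9.64 to 10.20 in the cassettes, 9.71 in Klf4L, 9.93 in Klf4S and 9.47 in lacZ, a narrow range that gives no check of the transgene, and the part of the transcript it covers is unknown here. Fibroblast markers were above background on 14 of 14 genes in every construct with a reprogramming transgene and on 13 of 14 in lacZ, and Vim read 13.38 to 13.76 over the 11 arrays.

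Of the 7 keratins, 5 varied by more than 2 on the log2 scale over the 11 arrays and 2, Krt5 and Krt15, by less than 1. A range of 2 or more was seen in 5.56% of all genes. Krt14, Krt16, Krt17 and Krt6a were high in all long-Klf4 cassettes and in OKN-HAMS, and low in the short-Klf4 cassettes and lacZ, with Krt17 in OKMS in between. In Klf4 alone Krt14, Krt16 and Krt17 were high too, while Krt6a, at 7.88 to 8.46, was in between. Krt6b followed a pattern of its own. In RNA from a whole population, fewer cells with the transcript and less RNA per cell cannot be told apart.

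**Figure D1:**
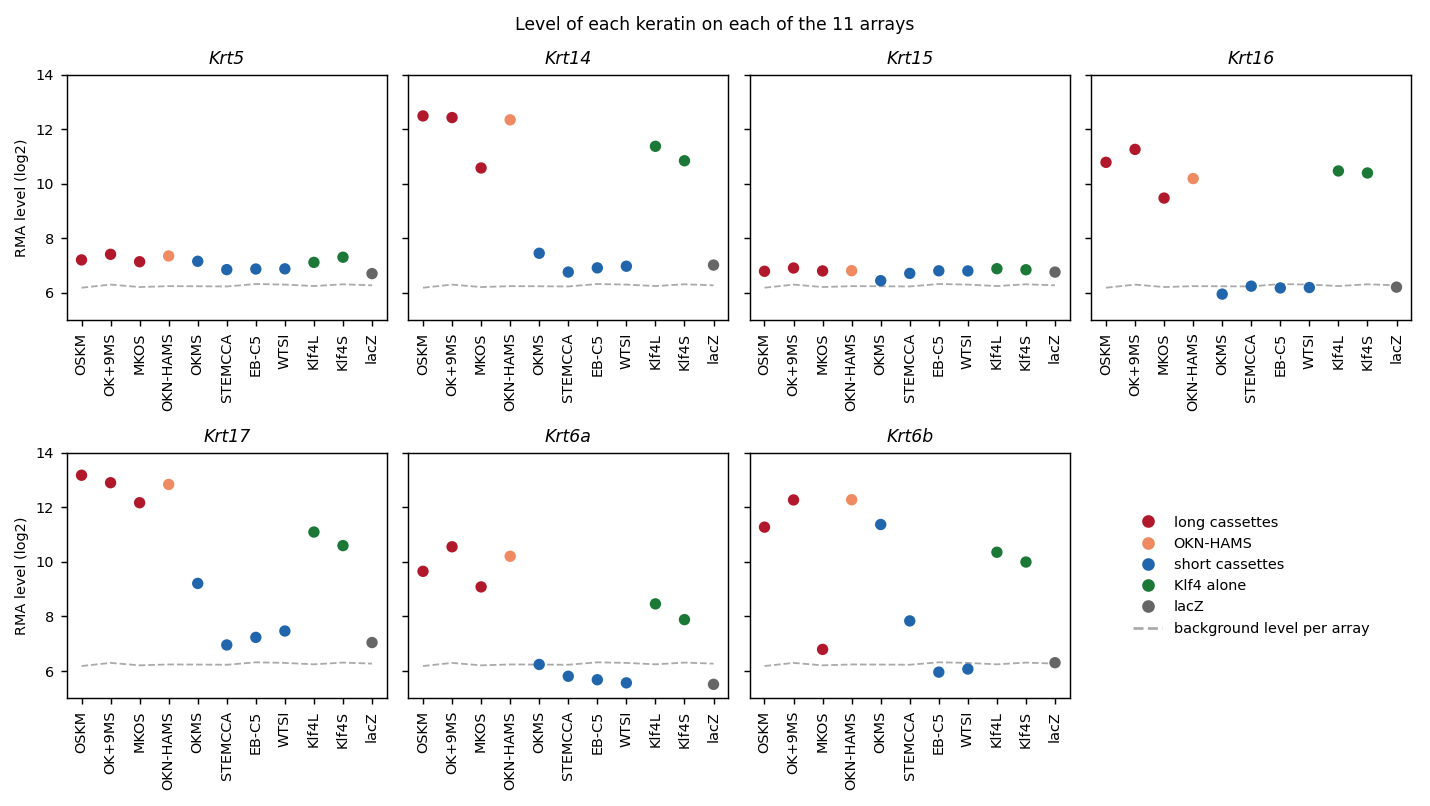
RMA level (log2) of each of the 7 keratins on each of the 11 arrays, coloured by group; the dashed line is the background level of each array, the 95th percentile of olfactory and vomeronasal receptor genes. Krt14, Krt16 and Krt17 are high in the long cassettes, OKN-HAMS and Klf4 alone. Krt6a is high in the long cassettes and OKN-HAMS and in between in Klf4 alone. Krt6b is high in OKMS and low in MKOS, and Krt5 and Krt15 stay between 6.44 and 7.41 throughout.

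Krt14, the type I chain of basal cells, read 12.48 in OSKM, 12.42 in OK+9MS and 10.57 in MKOS. It read 12.34 in OKN-HAMS, and 7.45 in OKMS, 6.97 in WTSI, 6.91 in EB-C5 and 6.76 in STEMCCA. The level was 11.37 in Klf4L and 10.84 in Klf4S, against 7.01 in lacZ. The lowest long cassette, MKOS, thus stood above the highest short cassette, OKMS, and both Klf4 arrays stood between MKOS and the other long cassettes. The short cassettes lay on both sides of lacZ.

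Krt5, the type II partner of Krt14, had a range of 0.71 against 5.72 for Krt14. Its level was 7.20 in OSKM, 7.41 in OK+9MS and 7.14 in MKOS, 7.35 in OKN-HAMS, and 7.15 in OKMS and 6.85 to 6.88 in the other short cassettes. It read 7.11 in Klf4L and 7.30 in Klf4S, against 6.70 in lacZ. The long and short cassettes overlapped through OKMS. In OSKM, 56.2% of all genes read at least as high as Krt5, while 0.503% of receptor genes did, so the signal was above that background level but in the lower part of the array. Other keratins with a range under 1 read at such levels too, Krt87 at 7.13 to 7.56 and Krt12 at 6.81 to 7.20 over all arrays. The level alone therefore does not show whether Krt5 was expressed. Krt15, the other basal type I keratin, ranged from 6.44 in OKMS to 6.91 in OK+9MS, and lacZ at 6.76 lay inside that range.

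The start regions of this basal pair show the sequence context of a gene that differed between cassettes and of its partner that did not pass the test. RefSeq windows (GRCm38.p6, 250 bases before to 50 after a start site) matched 2 of the 7 keratins by symbol, Krt5 and Krt14. Capitals mark CACCC, or its reverse complement GGGTG, the core letters that Krüppel-like factors are known to bind. The Krt5 window is chr15:101712856-101713155, minus strand. The Krt14 window is chr11:100205981-100206280, minus strand, and its start site lies 1480 bases inside the gene's 5′ end in the same assembly, so it is not the region before the full-length transcript.
Krt5: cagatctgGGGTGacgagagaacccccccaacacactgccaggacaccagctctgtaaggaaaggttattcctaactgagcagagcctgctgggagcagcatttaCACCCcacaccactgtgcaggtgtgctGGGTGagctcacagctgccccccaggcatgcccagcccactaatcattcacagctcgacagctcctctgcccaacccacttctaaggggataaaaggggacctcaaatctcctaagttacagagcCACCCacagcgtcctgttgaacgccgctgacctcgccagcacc
Krt14: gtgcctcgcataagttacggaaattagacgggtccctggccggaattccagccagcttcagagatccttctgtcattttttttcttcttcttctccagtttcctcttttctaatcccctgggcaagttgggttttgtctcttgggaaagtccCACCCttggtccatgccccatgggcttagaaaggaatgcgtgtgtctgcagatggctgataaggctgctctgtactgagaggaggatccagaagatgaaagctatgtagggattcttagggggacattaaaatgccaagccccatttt
The Krt5 window held 4 matches, 2 on each strand, and the Krt14 window 1. At least 1 match was found in 57.5% and 4 or more in 2.82% of the 32851 windows of the table. A match describes the letters and says nothing of binding.

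Krt16, a type I keratin of activated keratinocytes, read 10.78 in OSKM, 11.26 in OK+9MS and 9.47 in MKOS, and 10.19 in OKN-HAMS. The short cassettes read 5.95 in OKMS, 6.24 in STEMCCA, 6.18 in EB-C5 and 6.19 in WTSI, and only STEMCCA passed its array's background level, of 6.23. Krt16 read 10.46 in Klf4L and 10.39 in Klf4S, against 6.21 in lacZ, which was below background. No array lay between MKOS at 9.47 and STEMCCA at 6.24.

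Krt17, which pairs with Krt6 chains in wound-edge and hair follicle keratinocytes, was highest in OSKM at 13.18 and OK+9MS at 12.90, and read 12.17 in MKOS and 12.84 in OKN-HAMS. It read 9.21 in OKMS, 7.47 in WTSI, 7.23 in EB-C5 and 6.96 in STEMCCA. The level was 11.10 in Klf4L and 10.60 in Klf4S, against 7.04 in lacZ. OKMS stood above the other short cassettes and lacZ, and below every long cassette and both Klf4 arrays.

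Krt6a, a wound-induced type II keratin, read 9.66 in OSKM, 10.56 in OK+9MS and 9.08 in MKOS, and 10.21 in OKN-HAMS. The short cassettes read 6.24 in OKMS, 5.81 in STEMCCA, 5.68 in EB-C5 and 5.57 in WTSI, of which only OKMS reached its array's background level, also of 6.24. Krt6a read 8.46 in Klf4L and 7.88 in Klf4S, against 5.51 in lacZ. The 2 Klf4 arrays lay between the long and the short cassettes.

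Krt6b, a close relative of Krt6a in sequence, divided the cassettes differently. It read 11.28 in OSKM and 12.27 in OK+9MS but 6.79 in MKOS, and 12.28 in OKN-HAMS. It read 11.37 in OKMS, 7.84 in STEMCCA, 6.07 in WTSI and 5.96 in EB-C5. The level was 10.35 in Klf4L and 10 in Klf4S, against 6.31 in lacZ. A short cassette, OKMS, therefore stood above OSKM, and a long cassette, MKOS, stood near lacZ, so the long and short groups overlapped. The SD was 2.92 among the 3 long cassettes and 2.53 among the 4 short ones, and in each group 0.00502% of all genes, the share that 1 gene makes up, were at least as variable. Because Krt6a and Krt6b share much of their sequence, some of either signal can come from the other gene; the amount was not tested, although OKMS was high for Krt6b and near background for Krt6a.

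The long cassettes were compared with the short cassettes, groups set by the form of Klf4. The constructs differ in other ways too, as the factor order in the names OSKM, MKOS and OKMS shows. In this comparison the form of Klf4 and those other differences cannot be told apart. Of the 7 keratins, 4 were higher in the long cassettes, Krt14, Krt16, Krt17 and Krt6a, and 3 did not pass the test. Differences were fitted with limma over all genes and called at a Benjamini-Hochberg adjusted p under 0.05, a rule by which 2.81% of all genes were called higher and 1.17% lower. Krt17 averaged 12.75 ± 0.52 in the long and 7.72 ± 1.02 in the short cassettes (SD, n = 3 and n = 4), a log2 difference of 5.03 ± 0.53 SE (limma adjusted p = 0.00288). Krt14 averaged 11.83 ± 1.08 in the long and 7.02 ± 0.30 in the short cassettes, a difference of 4.80 ± 0.45, or 27.9-fold (limma adjusted p = 0.00159). Krt16 differed by 4.36 ± 0.36 (limma adjusted p = 0.00113) and Krt6a by 3.94 ± 0.34 (limma adjusted p = 0.00125), and both rest on short-cassette levels at or near background. For these 4 genes the groups did not overlap, which in this direction held for 7.40% of all genes.

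Krt6b had a difference of 2.30 ± 1.64 (limma adjusted p = 0.533), Krt5 of 0.31 ± 0.10 (limma adjusted p = 0.152) and Krt15 of 0.14 ± 0.09 (limma adjusted p = 0.489). The median difference over the 7 keratins was 3.94, beside -0.02 over all genes. The 4 calls were made under all 16 alternatives tried, each of the 9 arrays of the long cassettes, short cassettes and Klf4 alone left out in turn among them. Each construct was measured only once, so the spread is that between different constructs and not between repeated cultures.

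**Figure D2:**
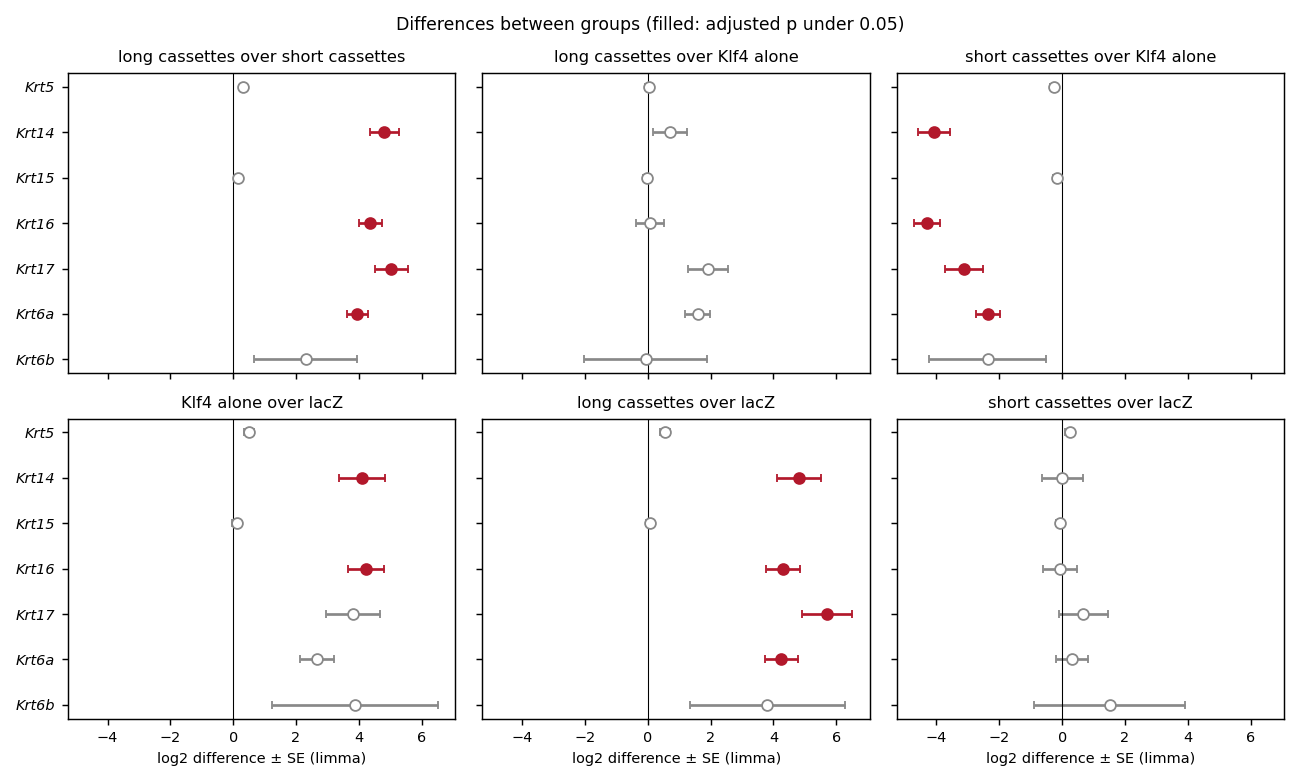
Log2 difference ± SE (limma, x axis) of each keratin in the 6 comparisons; filled red points passed an adjusted p of 0.05 and open grey points did not. Krt14, Krt16, Krt17 and Krt6a are shifted by 3.94 to 5.03 in the long over the short cassettes. In the short cassettes over lacZ they lie between -0.07 (Krt16) and 0.67 (Krt17, SE 0.78). The error bars of Krt6b are wide in every panel.

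The long cassettes were next set against Klf4 alone, which was collected in the same way. No keratin passed the test in limma (0 of 7, beside 5.34% of all genes in either direction, 3.24% higher and 2.11% lower), and 2 had an unadjusted p under 0.05. Krt17 had a difference of 1.90 ± 0.63 (limma adjusted p = 0.113) and Krt6a of 1.59 ± 0.40 (limma adjusted p = 0.0621), and for these 2 genes every long cassette lay above both Klf4 arrays, as it did for 20.6% of all genes. Krt14 had a difference of 0.72 ± 0.54 and Krt16 of 0.07 ± 0.43. Without MKOS, the long cassette with the lowest values, limma called Krt14 (1.35, adjusted p = 0.0251) and Krt6a (1.93, adjusted p = 0.0241). Krt17 was called without OKMS (adjusted p = 0.0245) and in a fit of these 5 arrays only (adjusted p = 0.0256), and Krt6a with dim genes left out (adjusted p = 0.044) or with OKN-HAMS among the long cassettes (adjusted p = 0.0277).

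The short cassettes, which carry the other factors beside short Klf4, were lower than Klf4 alone in the same 4 keratins. Krt16 averaged 6.14 ± 0.13 in the short cassettes and 10.43 ± 0.05 in Klf4 alone (SD, n = 4 and n = 2), a difference of -4.29 ± 0.41 SE (limma adjusted p = 0.0014). For Krt16, and likewise for Krt6a, 3 of the 4 short cassettes lay below background, so the sizes of these 2 differences are uncertain. The difference was -4.08 ± 0.51 for Krt14 (limma adjusted p = 0.00322), -3.13 ± 0.60 for Krt17 (limma adjusted p = 0.0129) and -2.35 ± 0.38 for Krt6a (limma adjusted p = 0.00775). In this comparison 10.9% of all genes were called lower and 8.48% higher. Krt6b had a difference of -2.36 ± 1.86 (limma adjusted p = 0.442), and OKMS exceeded both Klf4 arrays. The count of 4 dropped to 2, Krt14 and Krt16, without Klf4S or with Klf4L and Klf4S averaged, and to 1, Krt16, without Klf4L.

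Klf4 alone was compared with lacZ to read the keratins under Klf4 without the other factors. With its single array, lacZ adds no spread of its own, and the fit assumes that it varies like the other groups; each call against it is a call against that array. Krt16 was higher in Klf4 alone, at least 17.8-fold over the background level of lacZ (10.43 against 6.21, limma adjusted p = 0.0163), and Krt14 was higher by 4.09 ± 0.73 (limma adjusted p = 0.0374). The 2 calls stand beside 0.752% of all genes called higher. Krt17 had a difference of 3.80 ± 0.85 (limma adjusted p = 0.08), Krt6a of at least 3.74-fold (limma adjusted p = 0.0607) and Krt6b of 3.87 ± 2.63 (limma adjusted p = 0.605). Neither call was made when Klf4L or Klf4S was left out, with both averaged, or on these 3 arrays alone, where the adjusted p of Krt14 was 0.0541 and that of Krt16 0.0528. Without EB-C5 or WTSI only Krt16 was called. Krt14 was also not called without OKMS (adjusted p = 0.0526) or OK+9MS (0.0566), but Krt17 was called without OKMS (0.014) and Krt6a without OK+9MS (0.0302) or MKOS (0.0331), or with dim genes left out (0.0397).

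Against lacZ the long cassettes were higher in the same 4 keratins, beside 1.72% of all genes. Krt17 was higher by 5.71 ± 0.80 (limma adjusted p = 0.0123), Krt14 by 4.81 ± 0.69 (limma adjusted p = 0.013), Krt16 at least 18.8-fold (limma adjusted p = 0.00839) and Krt6a at least 11.3-fold (limma adjusted p = 0.00642). None of the 4 was called in a fit of these 4 arrays only, where the adjusted p was lowest for Krt17, at 0.0777, and highest for Krt14, at 0.1495. In the short cassettes 0 of 7 keratins passed the test against lacZ in limma, and 0 had an unadjusted p under 0.05, beside 2.87% of all genes called in either direction. Their differences ran from -0.07 ± 0.14 for Krt15 and -0.07 ± 0.53 for Krt16 to 0.67 ± 0.78 for Krt17 and 1.51 ± 2.40 for Krt6b.

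Pairs of single arrays that differ by a named change in Klf4 were read without a test, because each construct has 1 array. Adding the 9 residues to OKMS, which gives OK+9MS, went with a difference of 4.98 in Krt14, 4.31 in Krt6a and 3.69 in Krt17. Krt16 was below background in OKMS, and its difference over that background level was at least 5.02. A difference at least as large as that of Krt14 was seen in 0.015% of genes, and as that of Krt17 in 0.0903%, while 2.30% of genes were 2-fold or more higher. Krt6b, already at 11.37 in OKMS, differed by 0.90, Krt15 by 0.46 and Krt5 by 0.26.

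OKN-HAMS minus OKMS gave 4.89 for Krt14, 3.97 for Krt6a, 3.63 for Krt17 and at least 3.95 for Krt16, beside 1.94% of genes at 2-fold or more higher. OKN-HAMS and OK+9MS differed from each other by 0.35 or less in 6 of the 7 keratins, and Krt16 was lower by 1.07 in OKN-HAMS. A difference of that size or more was seen in 0.843% of genes, and one of 2-fold or more in 1.02%.

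Without the other factors the same 9 residues went with small differences. Klf4L minus Klf4S was 0.58 for Krt6a, 0.53 for Krt14, 0.50 for Krt17, 0.36 for Krt6b, 0.07 for Krt16, 0.04 for Krt15 and -0.19 for Krt5. The Klf4 arrays were close to each other over all genes, with an SD of the difference of 0.126 and 0 genes at 2-fold, so that 0.135% of genes differed as much as Krt6a and 0.211% as much as Krt14. Whether the residues act differently in a cassette than alone was not tested, since each context holds 1 array per form.

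**Figure D3:**
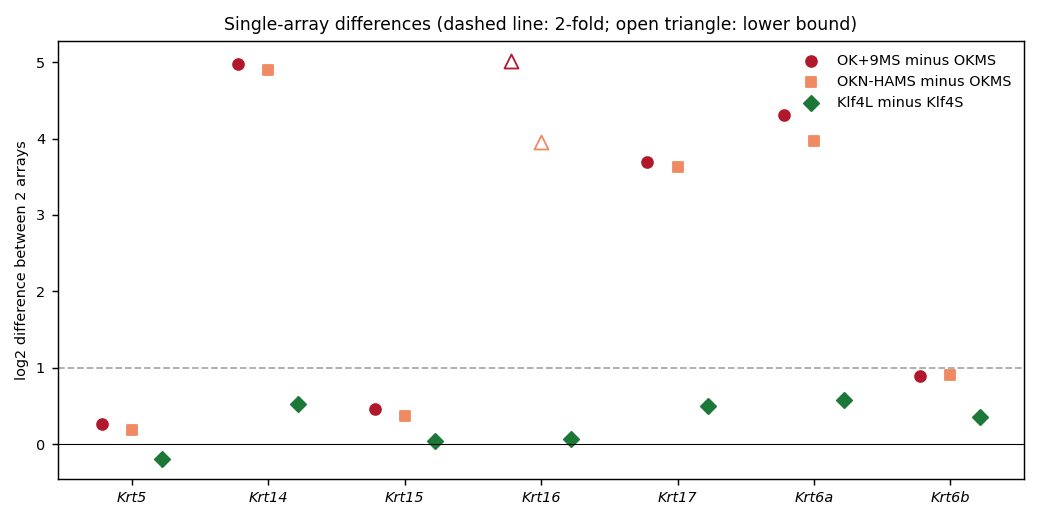
Log2 difference between 2 single arrays (y axis) for each keratin: OK+9MS minus OKMS, OKN-HAMS minus OKMS and Klf4L minus Klf4S; the dashed line marks 2-fold, and open triangles are lower bounds against background. In the cassettes Krt14, Krt16, Krt17 and Krt6a lie between 3.63 and 5.02 and the other keratins below 1, and in Klf4 alone all 7 lie between -0.19 and 0.58.

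Over the 11 arrays Krt14, Krt16, Krt17 and Krt6a ran closely together, with Pearson's r from 0.92 for Krt16 with Krt17 to 0.98 for Krt14 with Krt16. Krt6b correlated less with them, at 0.66 to 0.74. Krt5 had r of 0.83 to 0.89 with these 5 genes although its range was 0.71, and Krt15 had r from -0.03 with Krt6b to 0.62 with Krt16. The arrays fall into a high and a low cluster for most of these genes, and these values only describe that.

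Of 1090 other genes with a range of 2 or more, the 8 closest to the mean of the 7 keratins over the 11 arrays had r from 0.951 to 0.971. They were Alox12b, an epidermal lipoxygenase of the skin barrier, Aqp3, a water and glycerol channel of basal keratinocytes, Mall, Adgrd1, an adhesion G protein-coupled receptor, Ly6g6c, Dgat2, an enzyme of triglyceride synthesis, Cwh43 and Sfn, an epithelial 14-3-3 protein. Alox12b read 8.48 to 11.57 in the long cassettes, 6.48 to 6.90 in the short cassettes, 9.98 to 10.47 in Klf4 alone and 6.55 in lacZ. For Krt6b, whose profile was chosen after its values were seen, the closest gene was Krtdap, a keratinocyte differentiation-associated secreted protein, with r = 0.909: it read 10.44 in OSKM, 10.69 in OK+9MS and 8.67 in MKOS, 10.95 in OKN-HAMS, 10.19 in OKMS and 5.59 to 6.18 in the other short cassettes, 8.59 in Klf4L and 8.10 in Klf4S, and 5.44 in lacZ. OKMS, high for Krt6b, was thus high for Krtdap, whereas MKOS, low for Krt6b, was not low for Krtdap.

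Keratin genes lie in a type I cluster on chromosome 11 and a type II cluster on chromosome 15 of the mouse, which also holds the type I gene Krt18. Their order was taken from GRCm38.p6. Krt14, Krt16 and Krt17 follow each other among the measured keratins of chromosome 11, between Krt9 and Krt42, which ranged from 5.54 to 5.69 and from 6.72 to 7.34 over all arrays. Krt15 lies between Krt13, at 10.02 to 11.12 in the long and 7.16 to 8.85 in the short cassettes, and Krt19, at 10.88 to 12.33 in the long and 7.88 to 9.86 in the short cassettes, and had a range of only 0.46. On chromosome 15 the order is Krt6b, Krt6a, Krt5, flanked by Krt75 at 6.60 to 6.96 and Krt71 at 6.39 to 6.82. High and flat genes therefore sat side by side in both clusters. Of the 45 measured keratins other than the 7, 9 had a range of 2 or more and 36 a range under 1. These neighbours were chosen by position, after values had been seen.

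**Figure D4:**
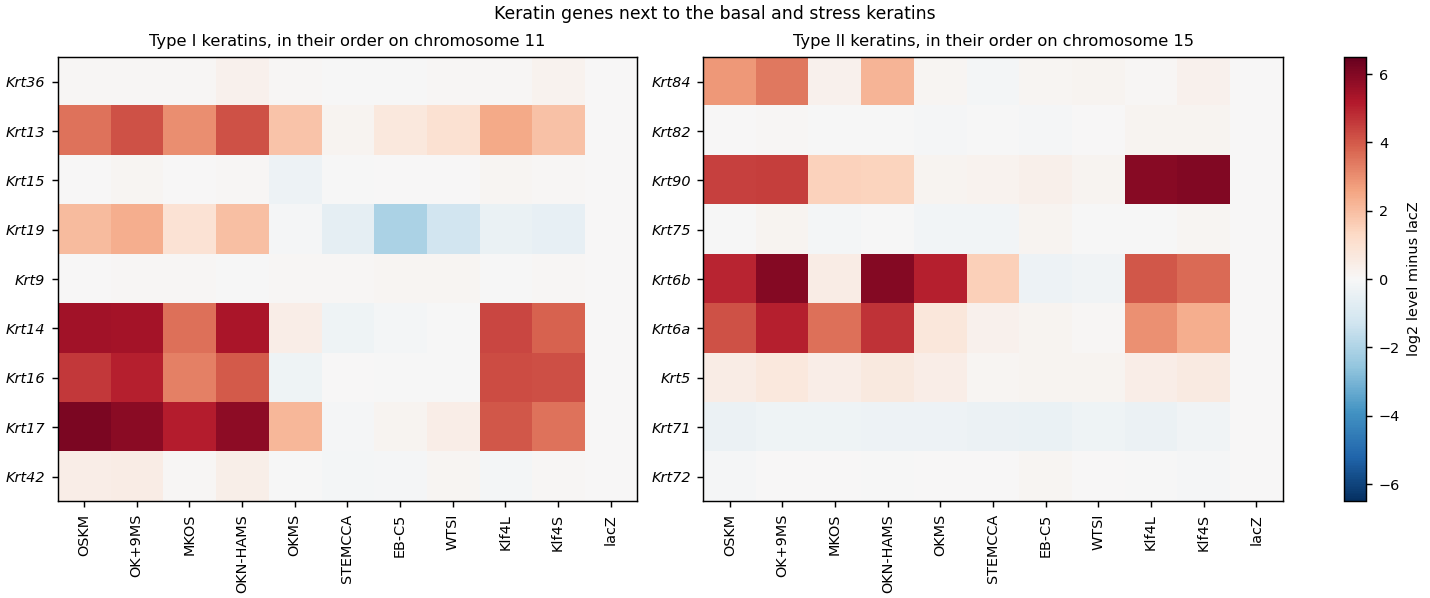
Log2 level minus lacZ (colour) of keratin genes in chromosomal order (rows) for each construct (columns); other genes between them are left out. Krt14, Krt16 and Krt17 form a block of high values in the long cassettes, OKN-HAMS and Klf4 alone next to flat Krt9 and Krt42, and Krt6b and Krt6a lie next to Krt5, whose levels range by 0.71.

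Genes that act with these keratins in stratified epithelium were read in the same fit, long over short cassettes first. Of 15 genes of the basal layer and hemidesmosome, which anchors keratin filaments to the basement membrane, 6 rose and 0 fell, with a median of 0.50. The integrin subunits Itgb4 (2.20 ± 0.42) and Itga6 (1.71 ± 0.11) and the laminin chains Lamb3 (1.58 ± 0.10) and Lama3 (2.83-fold) were among them. Trp63, the master regulator of basal keratinocytes, read 6.88 to 7.17 on all 11 arrays and was not called. Of 12 genes of the desmosome, the junction to which keratins attach between cells, and of related adhesion, 7 rose and 0 fell, with a median of 1.21. Dsg3, a cadherin of basal desmosomes, was at least 7.37-fold higher (9.15 against 5.55, below background in the short cassettes). The desmosomal cadherin Dsc2 rose by 2.31 ± 0.37 and the plakophilin Pkp1 by 2.02 ± 0.26. Sfn, counted in this list although it is not itself a desmosome or adhesion protein, rose by 3.30 ± 0.61. In this comparison 2.81% of all genes were called higher and 1.17% lower, and the median over all genes was -0.02.

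Other keratins moved in part, beside 2.81% of all genes called higher. Of 15 suprabasal and other stratified-epithelium keratins 3 rose and 0 fell, Krt90 (3.25 ± 0.66), Krt80 (2.81 ± 0.23) and Krt13 (2.64 ± 0.41), with a median of 0.05. Krt1 and Krt10, the pair of the epidermal spinous layer, were not called. Of 6 simple-epithelium keratins 3 rose and 0 fell, Krt8 (3.38 ± 0.57), Krt19 (2.79 ± 0.50) and Krt18 (1.72 ± 0.29), with a median of 1.59.

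The stress keratins were not joined by most wound-response genes, in a comparison that called 2.81% of all genes higher. Of 16 genes of that list 2 rose and 0 fell, with a median of 0.16, namely the cornified envelope precursors Sprr1a (4.16 ± 0.28) and Sprr1b (3.16 ± 0.22). S100a8 and S100a9, alarmins of wounded epidermis, and the cytokines Il1a and Il1b were not above background on any array. Of 15 transcription regulators 2 rose and 0 fell, with a median of 0.16, Ovol1 (2.16 ± 0.23), a repressor active in differentiating epidermis, and Grhl3 (1.13 ± 0.23), a barrier factor. Among the genes named from these lists and from the 2 marker lists that follow, Itga6, Lamb3, Dsg3, Pkp1, Krt80, Sprr1a, Sprr1b and Ovol1 were called with any of the 9 arrays of the long cassettes, short cassettes and Klf4 alone left out. Without OSKM, adjusted p exceeded the threshold for Lama3 (0.0511), Dsc2 (0.0713), Krt13 (0.0662), Krt18 (0.0894), Krt8 (0.0894), Krt19 (0.105), Sfn (0.108), Dcn (0.116), Itgb4 (0.118), Grhl3 (0.135), Krt90 (0.139) and Cd68 (0.165), and without OK+9MS for the same genes but Lama3. Without Klf4L or Klf4S, 9 of them were not called, Itgb4, Sfn, Krt90, Krt8, Krt19, Krt18, Grhl3, Dcn and Cd68. With 1 array left out, the counts higher in the long cassettes ran over 2 to 6 basal and 4 to 8 desmosome genes, 1 to 4 suprabasal and 0 to 4 simple-epithelium keratins, 2 to 4 wound-response genes and 1 to 3 regulators.

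Against Klf4 alone and lacZ the lists divided the groups in different ways. In the short cassettes over Klf4 alone, 3 of 15 regulators rose and 2 fell, beside 8.48% of all genes called higher. In the long cassettes over Klf4 alone, 4 regulators rose and 0 fell, and 1 wound-response gene rose and 2 fell. There 3.24% of all genes were called higher and 2.11% lower. Only 1 regulator was called without OSKM or without OK+9MS. None of the regulators was called without Klf4L or Klf4S or with the Klf4 arrays averaged. Over lacZ the long cassettes had 4 regulators higher and 1 lower, and 2 wound-response genes each way. In that comparison 1.72% of all genes were called higher, and 703 of 19938 genes in either direction. None of these regulators and wound-response genes was called in a fit of the compared groups only. The lower calls were also not made without OSKM, Klf4L or Klf4S. Of 6 simple-epithelium keratins 0 were called in either cassette group over Klf4 alone. In the short cassettes over Klf4 alone, 7 of 15 basal genes, 4 of 12 desmosome genes, 3 of 15 suprabasal keratins and 8 of 16 wound-response genes fell and 0 rose, beside the 10.9% of all genes called lower. With Klf4L and Klf4S averaged these counts were 3, 2, 1 and 2, and with 1 array left out they ran over 2 to 8, 2 to 4, 1 to 3 and 2 to 8, at the lowest count of each list without Klf4L or Klf4S, and for the desmosome genes also without OSKM. The difference was -5.74 ± 0.75 for Krt90, -3.75 ± 0.32 for Sprr1a and -2.69 ± 0.70 for Sfn; with Klf4L and Klf4S averaged, Sprr1a alone of the 3 was called (Krt90 adjusted p = 0.0524, Sfn 0.187). In the long cassettes over Klf4 alone, 2 of 15 basal genes rose, Lama3 (adjusted p = 0.0334) and Lamb3 (0.0309), and neither was called without OSKM, Klf4L or Klf4S or with the Klf4 arrays averaged (0.241 and 0.232). In the same comparison, the desmosome genes Dsg3 (1.44 ± 0.18) and Evpl (0.53 ± 0.08) rose and Dsc3 fell by 1.66 ± 0.11; Dsg3 was not called without Klf4S (adjusted p = 0.0818), nor Evpl without either Klf4 array (0.152 without Klf4S). In Klf4 alone over lacZ, Dsc3 was higher by 2.15 ± 0.15, Krt90 by 5.98 ± 1.06 and Lamb3 by 0.98 ± 0.15; Dsc3 alone of these was called with either Klf4 array left out, and none in a fit of these 3 arrays only (Dsc3 adjusted p = 0.0538). In the long cassettes over lacZ, 4 of 15 basal and 6 of 12 desmosome genes were higher, beside 1.72% of all genes. Of the basal genes, Itga6 and Lama3 were not called without OSKM (0.0748 and 0.0923) or either Klf4 array (0.063 and 0.0856), which left 2, and the desmosome count was then 4. With only these groups in the fit the counts were 0 and 1. Among the genes called were Itgb4 (4.77 ± 0.64), Dsp, the plaque protein that binds keratin filaments (4.42 ± 0.77), and Pkp1 (3.12 ± 0.39); Dsp was not called without OSKM (adjusted p = 0.0722), OK+9MS, Klf4L or Klf4S, and none of the 3 in a fit of these groups only. In the short cassettes over lacZ 0 of 12 desmosome genes passed the test in limma and 5 had an unadjusted p under 0.05, with a median of 0.03. There 3 of 16 wound-response genes and 1 of 15 basal genes were lower and 0 higher, and 1 regulator was called each way. Beside them, 2.87% of all genes were called in either direction. The wound-response and basal calls were not made without Klf4L or Klf4S, nor in a fit of these groups only.

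Markers of other cells were read beside these results. In the long over the short cassettes 2.81% of all genes were called higher and 1.17% lower. In the short cassettes over Klf4 alone 10.9% were called lower. Of 14 fibroblast markers 1 rose in the long over the short cassettes, Dcn (1.63 ± 0.31), and 0 fell. In the short cassettes over Klf4 alone 4 of 14 fell, Dcn (-1.81), S100a4 (-1.50), Col1a2 (-1.01) and Col5a1 (-0.96), with a median of -0.96; the count was 10 without STEMCCA and 0 without Klf4L or Klf4S. In the long cassettes over Klf4 alone 0 of 14 were called in limma and 5 had an unadjusted p under 0.05, with a median of -0.58, but 4 were lower without STEMCCA and 5 in a fit of the compared groups. Against lacZ, Dcn was higher in Klf4 alone (3.08) and in the long cassettes, and S100a4 was lower in the short cassettes, each the only one called, with medians of 0.93, 0.29 and 0.16, and none of the 3 was called without Klf4L or Klf4S. Of 7 blood and endothelium markers 1 rose, the macrophage marker Cd68 (1.03 ± 0.22). The endothelial receptor Tek had a difference of 0.02 between long and short cassettes, and both were higher than Klf4 alone, by 1.64 ± 0.28 in the long cassettes (limma adjusted p = 0.0214) and by 1.62 ± 0.26 in the short cassettes (0.00738). Neither call was made without Klf4L or Klf4S, nor that of the long cassettes without OSKM or OK+9MS. Over lacZ, Tek was at least 9.76-fold higher in the long and 9.63-fold in the short cassettes. The endothelial receptor Kdr went the other way, lower than lacZ by at least 1.38-fold in the long and 1.34-fold in the short cassettes. These were the only list members called, 1 higher and 1 lower in each comparison. Beside them, 1.72% of all genes were called higher in the long cassettes, and 2.87% in either direction in the short cassettes. Neither Tek nor Kdr was called in fits of the compared groups only. The summed log2 level of the list was 48.5 to 49.6 in the long cassettes, 47.2 to 48.3 in the short cassettes, 46.6 to 46.7 in Klf4 alone and 45.0 in lacZ. Ptprc and Adgre1, which define blood cells and macrophages, were not above background on any array. The part of these markers in the keratin differences was not tested.

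**Figure D5:**
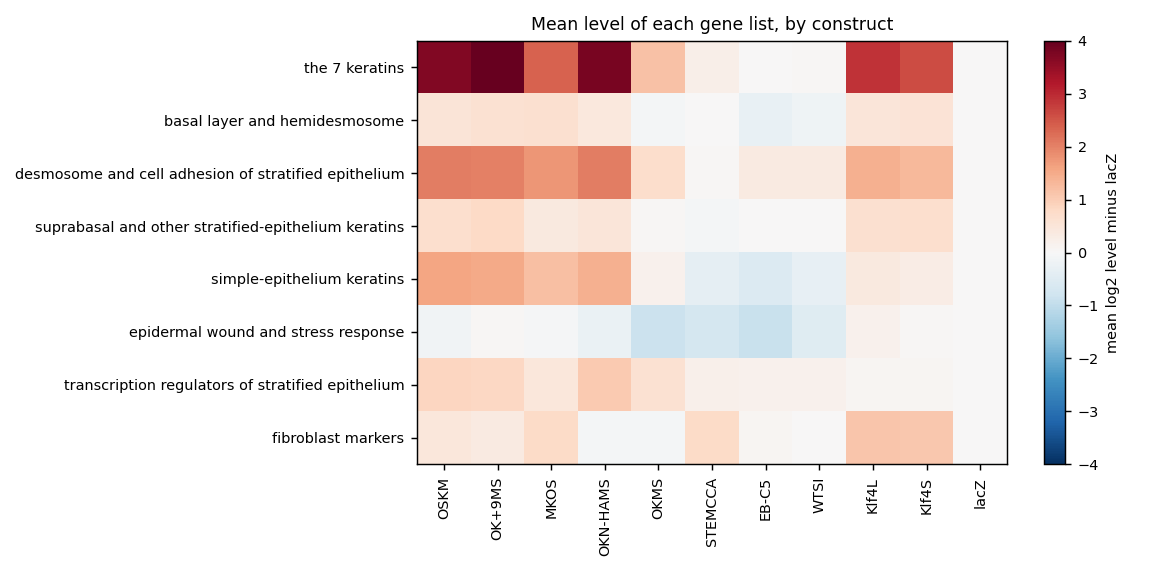
Mean log2 level minus lacZ (colour) of the 7 keratins and of 7 gene lists (rows) for each construct (columns). The 7 keratins lie 2.36 to 4.03 above lacZ in the long cassettes, 0.01 to 1.18 in the short cassettes and 2.62 to 2.89 in Klf4 alone; the desmosome list lies 1.77 to 2.04 above lacZ in the long cassettes, 0.06 to 0.70 in the short cassettes and 1.30 to 1.42 in Klf4 alone.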

How the data were processed

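Expression was measured on 1 Affymetrix mouse gene array for each of 11 constructs. The deposited values are log2 expression levels made by the authors with RMA, per the submitters' processing notes; no version is named. They were used as deposited. Of 28856 probe sets, 21789 had 1 gene symbol in the platform table, 1621 several and 5446 none; only the first kind was used. The probe set with the highest mean stood for each of 19938 genes, 999 of which had more than 1. Groups were the long cassettes (3 arrays), OKN-HAMS (1), the short cassettes (4), Klf4 alone (2) and lacZ (1), fitted together in limma 3.58.1 (R 4.3.3; lmFit and eBayes) with 6 residual degrees of freedom and Benjamini-Hochberg adjustment over all genes; a call is an adjusted p under 0.05. Where every array of a group lay at or below its background level (the 95th percentile of receptor genes), folds are given as bounds against that level.

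The Klf4 form of OSKM, MKOS, STEMCCA, EB-C5, WTSI and OKN-HAMS was taken from knowledge of the study's constructs, since the labels used here do not state it. The 7 keratins and the gene lists were chosen with earlier results of these data known. Genes were named by rule: the 7 keratins, up to 4 called members with the largest differences per list, and the 8 genes most like the keratin mean. The script was checked on simulated data. Alternatives covered the normalization, a filter on dim genes, the variance estimate, the arrays in the fit, the group of OKN-HAMS, the probe set and each array of the groups with more than 1 left out; averaging Klf4L and Klf4S was added after seeing the data. The number of arrays limits the precision.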

Additional observations from a re-analysis of the deposited data

Results flagged for a closer look

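Among the 4 short cassettes, the Krt5 level of OKMS, 7.15, stood apart from the other 3, which lay between 6.85 and 6.88. Of 7 keratins examined in this way only Krt5 was set apart, and chance alone sets about 1 group in 20 apart. Krt5 also moved in opposite directions with the 9 added residues: OK+9MS minus OKMS was 0.26 and Klf4L minus Klf4S was -0.19. Each value comes from 2 arrays, and the difference between them was not tested.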

How the results depend on the processing

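Left out in turn were the 9 arrays of the long cassettes, short cassettes and Klf4 alone. Called keratins numbered 4 in the long over the short cassettes and 0 in the short cassettes over lacZ under all 16 alternatives. In the long cassettes over Klf4 alone the count was 0, and 1 with dim genes left out, with robust and trended variance, with only the compared arrays, or with OKN-HAMS among the long cassettes; leaving out 1 array gave 0 to 2. In the short cassettes over Klf4 alone it was 4, and 2 with Klf4L and Klf4S averaged; leaving out 1 array gave 1 to 4. In Klf4 alone over lacZ it was 2, and 3 with dim genes left out, 4 with robust and trended variance, 0 with only the compared arrays and 0 with Klf4L and Klf4S averaged; leaving out 1 array gave 0 to 3. In the long cassettes over lacZ it was 4, and 0 with only the compared arrays. Changes of sign were seen only in differences not called either way. In the long cassettes over Klf4 alone, with OKN-HAMS among the long cassettes, Krt16 was 0.00 and Krt6b 0.48; leaving out 1 array gave -0.05 to 0.14 for Krt5, -0.30 to 0.59 for Krt16 and -1.14 to 1.60 for Krt6b. In the short cassettes over lacZ, Krt14 was 0.00 after quantile normalization and -0.13 to 0.10 with 1 array left out, and Krt15 -0.11 to 0.01. The causes were not tested. Of 672 values for the 7 keratins 625 kept direction and call, 13 gained and 23 lost a call, and 11 changed sign; of 1616 for other named genes 397 lost the call. In many of the keratin values the direction could not change. Each keratin has 1 probe set, so the choice of probe set altered nothing. The dim-gene filter, the variance estimate, a fit of the compared arrays only and leaving out an array of another group also keep each difference. Genes called over the whole array changed most with the arrays fitted. With only the compared arrays they numbered 376 in the long over the short cassettes (795 with all arrays), 3493 in the long cassettes over Klf4 alone (1065), 2516 in the short cassettes over Klf4 alone (3855), 0 in Klf4 alone over lacZ (346), 6 in the long cassettes over lacZ (703) and 1 in the short cassettes over lacZ (573). With Klf4L and Klf4S averaged, an alternative chosen after seeing the data, the same counts were 376, 50, 353, 59, 291 and 157, and with OKN-HAMS among the long cassettes the second was 2276. With 1 array left out they ran over 280 to 1367, 49 to 2813, 378 to 5610, 52 to 563, 291 to 1149 and 157 to 1914. No paired analysis was possible because replicate numbers only name the constructs in each group. Signal over background limits Krt16, Krt6a and Krt6b in the short cassettes and lacZ. Whether the low levels of Krt14 and Krt17 there, and the levels of Krt5 and Krt15 on any array, come from their transcripts was not tested.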
